A study of Rattus norvegicus with 84 samples.

Results

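Extracellular vesicles (EVs) from the brain and plasma of rats with ischemic stroke were examined for the transcripts of 10 genes of the endoplasmic reticulum (ER), namely Calr, Canx, Hspa5, Hsp90b1, Pdia3, Pdia4, Manf, Xbp1, Atf4 and Ddit3. The genes were chosen by name as ER chaperones and stress regulators with earlier results of these same count and FPKM tables in view, so their levels, group differences and correlations below describe these samples and support nothing beyond them. All 10 were present among 18782 annotated genes, and all 10 passed the filter on low counts in both tissues. FPKM gives fragments scaled to transcript length and to mapped fragments, and CPM gives counts scaled to the library's counts on annotated genes after TMM normalization, so that only FPKM compares levels between genes.

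Secreted and membrane proteins fold in the ER with the help of chaperones, lectins that hold glycoproteins, and enzymes that form disulfide bonds. When unfolded proteins accumulate, the sensors IRE1, PERK and ATF6 start the unfolded protein response, in which XBP1, ATF4 and cleaved ATF6 raise chaperone transcription and lasting stress induces CHOP, the product of Ddit3. Ischemia disturbs ER calcium and protein folding in neurons, and cells with heavy secretion such as hepatocytes and plasma cells carry large amounts of these chaperones.

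Adult male Sprague-Dawley rats, 8 to 12 weeks old, had the middle cerebral artery occluded for 90 min, and human neural stem cells (hNSCs, 200000 cells) or saline were given into the carotid artery 3 days later. Brain EVs came from the ipsilateral hemisphere and plasma EVs from the blood of the same 21 rats, 3 in each of 7 groups. The groups were healthy rats without stroke, control rats given saline and killed at day 4, 10 or 31 poststroke, and rats given hNSCs and killed at the same times. Labels call the blood fraction plasma in sample names and serum in the isolation protocol, and plasma is used here.

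Total counts in the 21 brain libraries ranged from 13221461 to 37651652 (median 19730248), of which 3.18% to 51.9% (median 20.6%) fell on annotated genes. Plasma libraries held 11878367 to 49824782 counts (median 34417724), with 45.1% to 75.6% on annotated genes. In brain the annotated share differed between groups, with means of 13.9% in healthy rats, 23.5%, 12.3% and 38.2% in control rats at days 4, 10 and 31, and 15.7%, 9.36% and 39.2% in hNSCs rats at those days. The hNSCs day 10 replicate 3 brain library, at 3.18% annotated, had 0 counts of Manf, Pdia4 and Ddit3. Neural markers were abundant in brain, with mean CPM of 2330 for Map2, 2452 for Gfap and 2618 for Mbp in brain, while the summed CPM of 5 of 5 neuron markers in plasma had a median of 0.98. In such bulk EV samples, fewer EVs from a cell type and less RNA per EV cannot be told apart.

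Among the lectin chaperones, Calr, which encodes the soluble calcium-binding lectin calreticulin, had the highest mean FPKM of the 10 genes in both tissues, 6.21 ± 5.09 in brain EVs and 79.0 ± 31.4 in plasma EVs (SD, n = 21). In brain it was close to Hsp90b1, above it in 12 of 21 libraries and below it in the means of the healthy rats (2.90 against 3.31) and of hNSCs rats at day 31 (13.5 against 14.1). Calr ranked 399 of 18782 genes in brain and 278 in plasma. Its membrane-bound relative Canx (calnexin) had a mean FPKM of 3.31 ± 2.38 in brain and 16.8 ± 6.87 in plasma. Canx varied least of the 10 between libraries, with a ratio of highest to lowest CPM of 2.36 in brain and 3.64 in plasma.

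The ATP-driven chaperone Hspa5 (BiP), which also restrains the stress sensors, had a mean FPKM of 2.84 ± 2.27 in brain and 25.4 ± 18.6 in plasma (SD, n = 21). For Hsp90b1 (GRP94), the HSP90 paralog of the ER, the median FPKM was 4.04 in brain and 36.3 in plasma. The disulfide isomerase Pdia3 reached 2.64 ± 2.07 and 32.4 ± 15.7, and Pdia4, another member of that family, 1.16 ± 0.97 and 14.2 ± 12.2. Pdia4 spread most of the 10 genes in plasma, where the highest library had 26.3 times the CPM of the lowest.

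Manf, a secreted ER stress-induced protein with neurotrophic activity, had a mean FPKM of 1.63 ± 1.36 in brain and 10.3 ± 5.22 in plasma (SD, n = 21). Among the transcription factors, Atf4 held 2.77 ± 2.53 and 51.3 ± 18.9, Xbp1 2.85 ± 1.66 and 13.6 ± 8.11, and Ddit3 1.71 ± 2.22 and 16.6 ± 10.8. The order by mean FPKM was Calr, Hsp90b1, Canx, Xbp1, Hspa5, Atf4, Pdia3, Ddit3, Manf and Pdia4 in brain, and Calr, Atf4, Hsp90b1, Pdia3, Hspa5, Canx, Ddit3, Pdia4, Xbp1 and Manf in plasma. The means of every pair of neighbours in either order differed by less than the larger of their SDs. Within libraries the order was firmer for some pairs, with Hsp90b1 above Canx in 20 of 21 brain libraries and Pdia3 above Hspa5 in 18 of 21 plasma libraries. Ddit3 in brain was above Manf in 7 of 21 libraries and had the lowest median of the 10 (0.515). Atf4 thus came after Calr in plasma and after 5 other genes in brain on the FPKM scale.

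To ask how brain EV transcripts moved after stroke, control rats at each time were compared with healthy rats. Hsp90b1 CPM was 393, 384 and 335 in the healthy rats and 272, 169 and 266 at day 4. All 3 day 4 values lay below all 3 healthy values, a log2 difference of -0.65 (SE 0.28, unadjusted p = 0.0301, adjusted p = 0.267 in edgeR's quasi-likelihood test with Benjamini-Hochberg adjustment). With limma on log2(FPKM + 1) the sign turned, at 0.26. Ddit3 CPM was 43.8, 31.5 and 44.5 in healthy rats and 18.5, 19.7 and 10.4 at day 4, again without overlap (log2 difference -1.30, SE 0.80, adjusted p = 0.531 in edgeR). Pdia3 CPM was 41.7, 66.7 and 76.0 in healthy rats and 141, 81.6 and 105 at day 4, here with the stroke rats higher (log2 difference 0.83, SE 0.42, adjusted p = 0.377 in edgeR). The summed CPM of the neuron markers was 5305, 6680 and 5867 in healthy rats and 2716, 3983 and 4835 at day 4, without overlap. Over all brain libraries, Pearson's r with that sum was 0.36 for Hsp90b1, 0.10 for Ddit3 and -0.64 for Pdia3 (adjusted p = 0.0545, permutation test). Spearman's rho was 0.47, 0.41 and -0.41 in that order. Without the 2 libraries farthest from the median sum, r was 0.60, 0.16 and -0.24, so that of Pdia3 rests in part on those libraries. Centered within groups r was -0.0019, -0.15 and -0.67. None of these was called. The part of neurons in these values was not tested.

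Brain EVs at day 4 and healthy brain EVs did not overlap for 4 of the 10 genes (Manf, Hsp90b1, Pdia3 and Ddit3), beside 24.2% of all genes tested. That count was 1 of 10 at day 10 (Hsp90b1), beside 14.1%, and 2 of 10 at day 31 (Pdia3 and Atf4), beside 25.3%. Atf4 CPM was 41.7, 53.6 and 22.2 in healthy rats and 72.4, 67.9 and 94.6 at day 31 (log2 difference 1.00, SE 0.69). Calr CPM at day 31, at 220, 238 and 268, overlapped the healthy values of 234, 234 and 178. The median log2 difference of the 10 genes from healthy was 0.05 at day 4, 0.07 at day 10 and 0.16 at day 31, beside 0.05, 0.00 and 0.24 over all genes. These 3 comparisons share the healthy libraries.

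Between times, Xbp1 CPM in brain was 77.1, 206 and 178 at day 10 and 78.4, 79.2 and 75.9 at day 31 (log2 difference -0.98, unadjusted p = 0.0492, adjusted p = 0.545 in edgeR). The 3 day 31 values were close together, and the lowest day 10 value lay among them. With limma on log2(FPKM + 1) its sign turned, at 0.75. Pdia3 at day 10 had 61.4, 214 and 81.2 CPM, so that its log2 difference from healthy of 0.95 (unadjusted p = 0.0350, adjusted p = 0.346 in edgeR) drew on replicate 2, and the range over fits without each library was 0.22 to 1.29.

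For the effect of hNSCs in brain EVs, the largest log2 differences at day 10 were those of Manf, Ddit3 and Pdia4. Manf CPM was 8.88, 14.2 and 0 in hNSCs rats and 27.7, 34.5 and 13.3 in control rats (log2 difference -1.66, unadjusted p = 0.0770, adjusted p = 0.425 in edgeR), and Ddit3 CPM 27.7, 18.6 and 0 beside 26.8, 33.6 and 48.6 (log2 difference -1.18, adjusted p = 0.556 in edgeR). The groups overlapped for both genes. Pdia4 CPM was 65.0, 2.66 and 0 in hNSCs rats at day 10 and 37.9, 57.8 and 51.2 in control rats. For Pdia4 replicates 2 and 3 were low and replicate 1 was above every control value, and these low libraries had annotated shares of 8.04% and 3.18%. Without replicate 1 edgeR called Pdia4 lower in the hNSCs group (adjusted p = 5.11e-04, 1 of 10 genes beside 4.92% of all genes), and no fold is given because the hNSCs libraries left are at 2.66 and 0 CPM. At day 31 the groups nearly coincided, with log2 differences of the 10 genes between -0.22 and 0.29. Their median was 0.17 at day 4, -0.23 at day 10 and -0.08 at day 31, beside -0.11, -0.34 and 0.00 over all genes.

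Across brain EVs, edgeR called 0 of the 10 genes in each of 10 comparisons, at an adjusted p under 0.05 with a change over 1.5-fold. Of 14515 genes tested, 0.861% were called between day 4 and healthy, 0.572% between day 10 and healthy, 0.00689% between day 31 and healthy, 0.152% between days 31 and 10, and 0% in the other 6. At an unadjusted p under 0.05 edgeR counted 3 of 100 differences of the 10 genes in these comparisons (Hsp90b1, Pdia3 and Xbp1 above), beside 8.38% over all genes. DESeq2 counted 7, beside 9.22%, and called 0. limma on log2(FPKM + 1) counted 26, beside 21.8%, and called 19. These were all between control day 31 and either healthy (beside 57.0% of all genes) or control day 10 (52.0%).

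On the FPKM scale, the 10 genes were higher in brain EVs at day 31. Calr FPKM was 1.71, 4.61 and 2.38 in healthy rats and 16.9, 13.8 and 9.24 in control rats at day 31. Hspa5 FPKM was 0.742, 2.27 and 0.957 in healthy rats and 8.13, 6.20 and 4.12 at day 31. For both genes every day 31 value lay above every healthy value. limma called 10 of 10 genes between day 31 and healthy, beside 57.0% of all genes, with log2(FPKM + 1) differences from 1.19 for Pdia4 to 2.13 for Ddit3 and adjusted p from 6.24e-05 to 0.00678. Between days 31 and 10 it called 9 of 10, beside 52.0% of all genes, with Xbp1 at an adjusted p of 0.0770 in limma.

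Brain FPKM moved with the share of counts on annotated genes. Over the 21 libraries, Pearson's r with that share ran from 0.81 for Ddit3 to 0.96 for Canx, and Spearman's rho from 0.75 for Xbp1 to 0.97 for Canx. The largest adjusted p of r was 1.08e-04 and the largest p of rho 1.20e-04 (permutation tests, r adjusted over 14515 genes). Without the 2 libraries farthest from the median share, r was 0.84 for Ddit3 and 0.96 for Canx, and centered within groups it was -0.12 for Ddit3 and 0.83 for Canx. Of all genes, 94.7% correlated with the share in brain, with a median r of 0.86. On log2(TMM CPM + 1) r with the share in brain ran from -0.55 for Xbp1 to 0.44 for Ddit3, and 0 of 10 were called in the permutation test, beside 8.27% of all genes; unadjusted p was under 0.05 for these 2. In plasma r of FPKM for the 10 genes lay between -0.13 and 0.27, and 0% of all genes were called. The r of log2(TMM CPM + 1) in plasma ran from -0.45 for Pdia4 (unadjusted p = 0.0405, permutation test) to -0.0080 for Xbp1. Its median was -0.30 for the 10 genes, beside 0.06 over all genes, and 0 of 10 were called, beside 0.0747% of all genes. The part of the annotated share in the day 31 values was not tested.

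**Figure D1:**
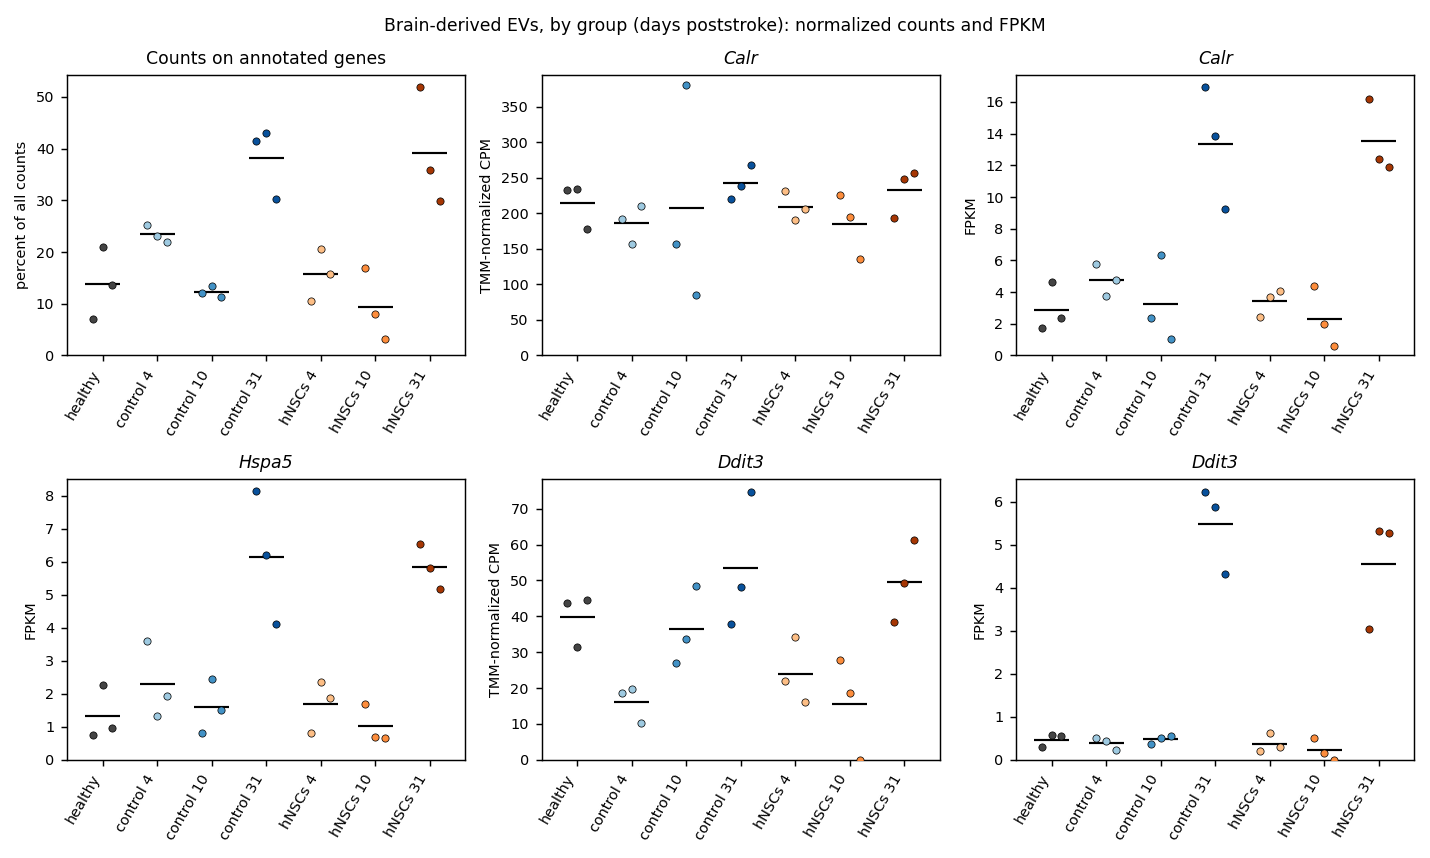
Brain-derived EVs of 7 groups of 3 rats: the percent of counts on annotated genes, TMM-normalized CPM of Calr and Ddit3, and FPKM of Calr, Hspa5 and Ddit3, by group and day poststroke. Points are libraries and lines are group means; Calr CPM overlapped between healthy rats and control rats at day 31, while Calr FPKM was 1.71 to 4.61 in healthy rats and 9.24 to 16.9 at day 31.

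Ddit3 stood apart in the FPKM that each of its counts gave. Its brain FPKM was 0.292, 0.570 and 0.548 in healthy rats and 6.22, 5.87 and 4.32 in control rats at day 31, while its CPM was 43.8, 31.5 and 44.5 against 37.7, 48.1 and 74.6. FPKM was therefore separate between the groups and CPM was not. The same held for Manf, Calr, Canx, Hspa5, Hsp90b1, Pdia4 and Xbp1. The share of all genes with this arrangement was not counted, so whether these genes differ in it from other genes was not tested. On the FPKM scale limma called 57.0% of all genes between control rats at day 31 and healthy rats. The FPKM of a gene was a sum over transcripts, and for Ddit3 the FPKM that each count gave, relative to its own median and to the library's, was 2.30, 2.25 and 1.80 at day 31 in control rats. For the other 9 genes the ratio of the highest to the lowest such value over brain libraries was at most 1.32.

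In plasma EVs, Calr CPM was 313, 315 and 349 in healthy rats, 354, 217 and 685 at day 4, 558, 651 and 477 at day 10, and 817, 814 and 473 at day 31. The healthy values lay close together and below all day 10 and all day 31 values, while day 4 overlapped them and days 10 and 31 overlapped each other. The log2 difference from healthy was 0.79 at day 10 (SE 0.42, adjusted p = 0.750 in edgeR) and 1.11 at day 31 (SE 0.42, unadjusted p = 0.0159, adjusted p = 0.844 in edgeR).

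Hsp90b1 CPM in plasma was 156, 238 and 120 in healthy rats and 862, 775 and 170 in control rats at day 31. Replicates 1 and 2 of day 31 were high and replicate 3 lay among the healthy values (log2 difference 1.81, SE 0.73, unadjusted p = 0.0217, adjusted p = 0.844 in edgeR). Pdia4 had the same arrangement, with 48.4, 69.6 and 28.4 CPM in healthy rats and 273, 294 and 40.5 at day 31 (log2 difference 2.05, SE 0.99). Pdia3 CPM was 121, 155 and 97.6 in healthy rats, 224, 300 and 212 at day 10, and 354, 303 and 126 at day 31 (log2 difference at day 31 of 1.07, SE 0.49, adjusted p = 0.844 in edgeR).

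Plasma Atf4, the transcription factor translated under the integrated stress response, followed another course. Its CPM was 191, 380 and 188 in healthy rats, 543, 296 and 402 at day 10, and 208, 147 and 208 at day 31. Every day 10 value lay above every day 31 value (log2 difference of day 31 from day 10 of -1.14, SE 0.42, unadjusted p = 0.0125, adjusted p = 0.640 in edgeR), 1 of 10 genes without overlap beside 10.2% of all genes. Ddit3, its downstream target in the PERK arm, had 65.5, 63.2 and 37.8 CPM at day 10 and 55.3, 62.2 and 113 at day 31. These 2 groups overlapped.

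Plasma groups did not overlap for 0 of the 10 genes between day 4 and healthy, beside 12.5% of all genes, for 3 of 10 between day 10 and healthy (Calr, Pdia3 and Pdia4), beside 12.2%, and for 1 of 10 between day 31 and healthy (Calr), beside 12.2%. The median log2 difference of the 10 genes from healthy was 0.42 at day 4, 0.75 at day 10 and 0.95 at day 31, beside -0.12, -0.22 and -0.09 over all genes. Log2 differences above 0 were found for 9, 8 and 9 of the 10 genes, beside 43.0%, 37.9% and 44.5% of all genes. Atf4 was the gene below 0 at day 31 (-0.43). These comparisons share the healthy libraries.

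**Figure D2:**
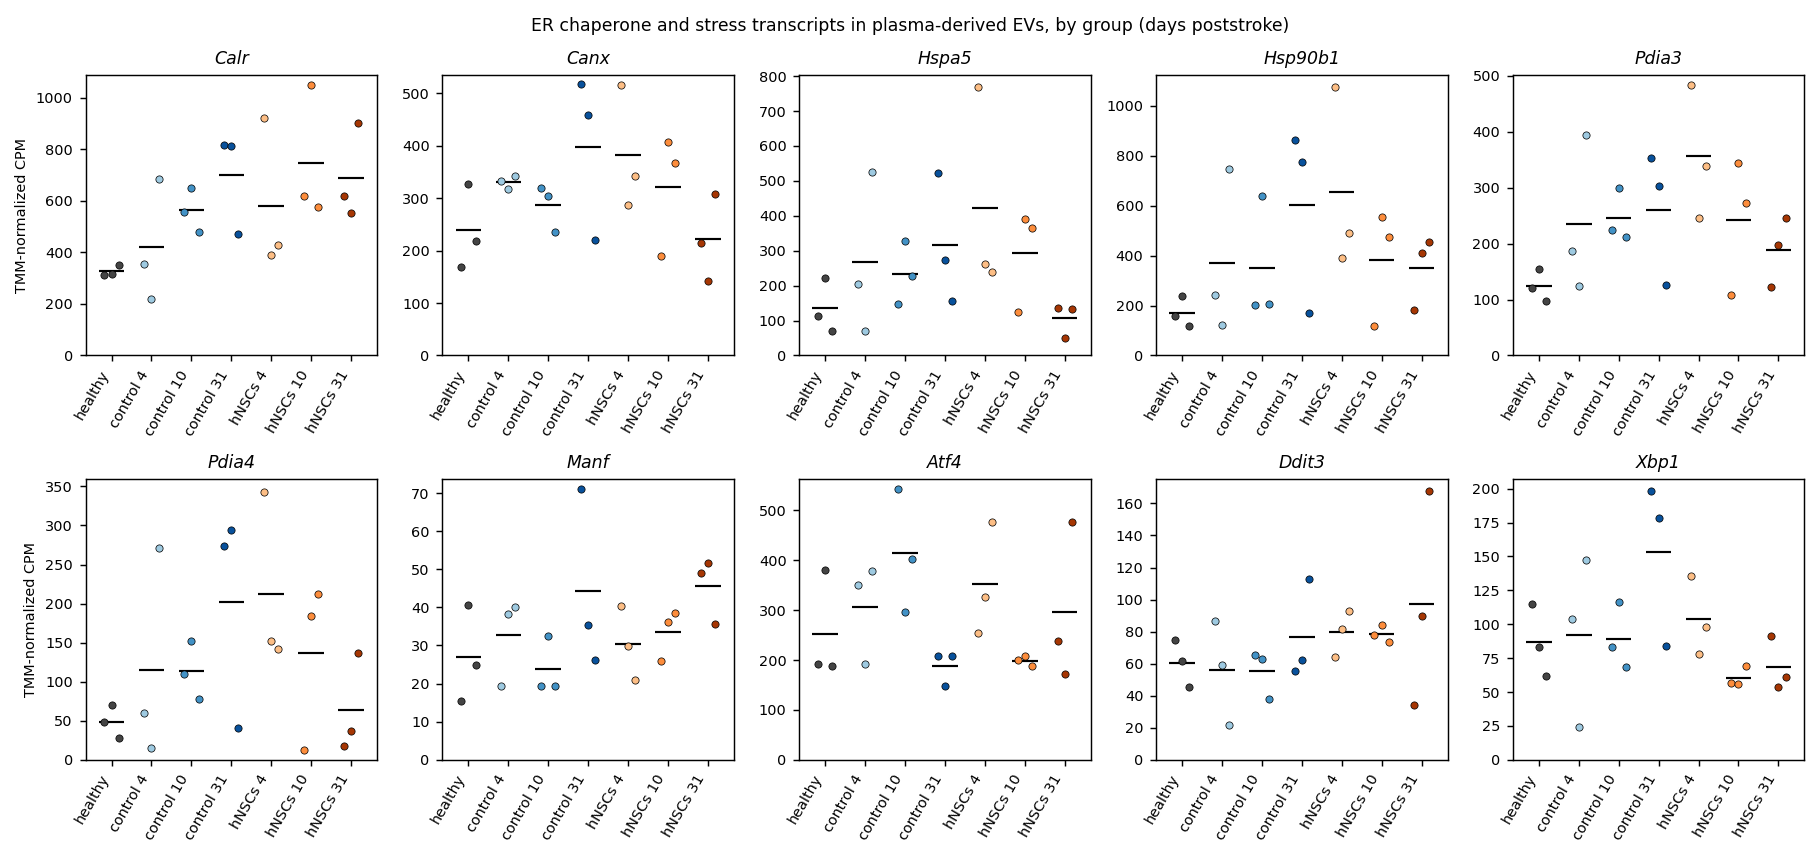
TMM-normalized CPM of the 10 ER genes in plasma-derived EVs by group and day poststroke, with 3 rats a group. Points are libraries and lines are group means; Calr was 313 to 349 in healthy rats and 473 to 817 in control rats at day 31, and Hspa5 was 157 to 521 in control rats and 51.4 to 137 in hNSCs rats at day 31.

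Comparing hNSCs rats with control rats, Hspa5 CPM in plasma EVs at day 31 was 137, 51.4 and 133 with hNSCs and 521, 274 and 157 without. The groups did not overlap, 1 of 10 genes beside 11.2% of all genes (log2 difference -1.57, SE 0.69, unadjusted p = 0.0342, adjusted p = 0.522 in edgeR). At day 4 the order was the other way for the means, with 769, 262 and 239 CPM in hNSCs rats and 205, 69.9 and 524 in control rats, and the groups overlapped. The change of the hNSCs effect from day 4 to day 31 was -2.23 on the log2 scale (unadjusted p = 0.0311, adjusted p = 0.433 in edgeR), and ran from -3.19 to -1.61 over fits without each library.

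Xbp1, whose spliced transcript encodes an activator of chaperone genes, had 91.3, 53.6 and 60.8 CPM in hNSCs rats at day 31 and 199, 178 and 83.9 in control rats (log2 difference -1.16, SE 0.51, adjusted p = 0.522 in edgeR). Canx CPM was 215, 142 and 307 with hNSCs and 517, 458 and 219 without (log2 difference -0.85, SE 0.40, adjusted p = 0.522 in edgeR). For both genes control replicates 1 and 2 were the highest and replicate 3 overlapped the hNSCs group. Calr, with 616, 552 and 901 CPM in hNSCs rats, did not follow (log2 difference -0.02, SE 0.41).

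At day 10 plasma Atf4 CPM was 200, 208 and 188 in hNSCs rats, below the control values of 543, 296 and 402 (log2 difference -1.06, SE 0.41, unadjusted p = 0.0189, adjusted p = 0.834 in edgeR). Ddit3 went the other way, with 77.9, 83.8 and 73.5 CPM in hNSCs rats and 65.5, 63.2 and 37.8 in control rats, also without overlap (log2 difference 0.50, SE 0.53). The change of the hNSCs effect on Atf4 from day 4 to day 10 was -1.26 (unadjusted p = 0.0431, adjusted p = 0.866 in edgeR). Atf4 and Ddit3 were 2 of 10 genes without overlap at day 10, beside 8.58% of all genes.

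The median log2 difference of the 10 genes between hNSCs and control rats in plasma was 0.49 at day 4, 0.22 at day 10 and -0.63 at day 31, beside 0.00, 0.21 and -0.10 over all genes. At day 31, 3 of 10 were above 0, beside 41.5% of all genes. The median change of the effect from day 4 to day 31 was -1.06, beside -0.26. Hemoglobin genes, transcripts of red cells, moved with these groups. At day 31 they held 24.8%, 19.2% and 19.3% of annotated counts in hNSCs rats and 5.98%, 9.02% and 15.2% in control rats, without overlap. At day 4 the shares were 1.62%, 0.752% and 1.21% against 2.88%, 2.24% and 1.39%, and healthy rats had 6.32%, 3.60% and 9.13%. At day 10 they were 12.0%, 15.4% and 15.1% in control rats, with hNSCs replicates 1 and 2 above these at 24.5% and 22.1% and replicate 3 below them. With hemoglobin genes left out the medians of the 10 genes were 0.50, 0.27 and -0.75, beside 0.00, 0.25 and -0.20 over all genes.

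Across plasma EVs edgeR called 0 of the 10 genes in each of 10 comparisons. Of 14720 genes tested, 0.0679% were called between day 4 and healthy, 0.387% between days 10 and 4, 0.00679% between hNSCs and control at day 4 and in each of the 2 changes of the hNSCs effect, and 0% in the other 5. At an unadjusted p under 0.05 edgeR counted 10 of 100 differences of the 10 genes in these comparisons, beside 6.22% over all genes. DESeq2 and limma on log2(FPKM + 1) each counted 17, beside 12.5% and 7.19%, and called 0.

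Transcripts of hepatocytes moved with several of these genes. The summed CPM of 5 of 5 hepatocyte markers (Alb, Apoa1, Serpina1, Fgb and Ambp) in plasma EVs was 2174, 4715 and 1712 in healthy rats. In control rats it was 10967, 115 and 17498 at day 4, 4603, 14021 and 3858 at day 10, and 28344, 18670 and 2872 at day 31. In hNSCs rats it was 19579, 25383 and 6968 at day 4, 832, 19423 and 12788 at day 10, and 1612, 1119 and 8895 at day 31. The sum was thus high in control replicates 1 and 2 at day 31 and low in replicate 3 and in hNSCs replicates 1 and 2. Alb was the most abundant of the 5 (mean CPM 6786), and in brain EVs the sum was 0 in 12 of 21 libraries.

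Over the 21 plasma libraries, Pdia4 had the closest relation with the hepatocyte sum (Pearson's r 0.90, Spearman's rho 0.93, both p = 1e-05 in a permutation test, adjusted p of r 0.00279). Hspa5 had r 0.83 and rho 0.89, Hsp90b1 r 0.80 and rho 0.84, and Pdia3 r 0.79 and rho 0.84, with the same p for each in the permutation test. The p of 1e-05 is the smallest these permutations can give, and p of r was adjusted over 132449 relations in plasma. Xbp1 followed with r 0.72 (adjusted p = 0.0274) and rho 0.56 (p = 0.00972, permutation tests), but with r 0.49 when the 2 libraries farthest from the median sum were left out, so that its relation rests in part on those libraries.

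Calr (r 0.60, adjusted p = 0.126, permutation test) and Canx (r 0.65, adjusted p = 0.0666, permutation test) did not pass the threshold, nor did Atf4 (r 0.26), Manf (r 0.15) and Ddit3 (r 0.03). In all 5 of 10 genes were called, each positive, beside 2.94% of all genes positive and 3.66% in either direction. Of 95 other ER genes, 4 were called, each positive. Without the 2 farthest libraries r was 0.90 for Pdia4, 0.86 for Hspa5, 0.78 for Hsp90b1 and 0.81 for Pdia3, and it was 0.87 for Canx. Centered within the 7 groups it was 0.88, 0.82, 0.79 and 0.79 for the first 4 of these, so their relations also held among rats of the same group. The median r was 0.68 for the 10 genes, 0.29 for the other ER genes and 0.05 for all genes.

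With the log2 hepatocyte sum as a covariate, an alternative chosen after seeing the data, the log2 difference between day 31 control and healthy rats was 0.42 for Pdia4 in place of 2.05. For Hsp90b1 it was 0.80 in place of 1.81, and for Calr 0.68 in place of 1.11. The difference of Hspa5 between hNSCs and control rats at day 31 was -0.62 in place of -1.57. Between hNSCs and control rats at day 31 the sign turned for Hsp90b1 (0.30 in place of -0.79), Pdia3 (0.14 in place of -0.47) and Calr (0.38 in place of -0.02). Not every difference became smaller. Between day 31 control and healthy rats Atf4 was at -0.60 in place of -0.43, and Ddit3 at 0.35 in place of 0.34. With hNSCs at day 31 Atf4 was at 0.80 in place of 0.66, Manf at 0.21 in place of 0.04, and Ddit3 at 0.34 in both fits. edgeR counted 0 of the 10 genes at an unadjusted p under 0.05 in either comparison with the covariate, beside 6.16% of all genes for day 31 and 6.63% for hNSCs. The covariate was itself related to several of these genes. Its mean sum also differed between the groups, at 2867 CPM in healthy, 16629 in control day 31 and 3875 in hNSCs day 31 rats. This fit therefore cannot separate hepatocyte RNA from the groups, and its part in the group differences was not tested.

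**Figure D3:**
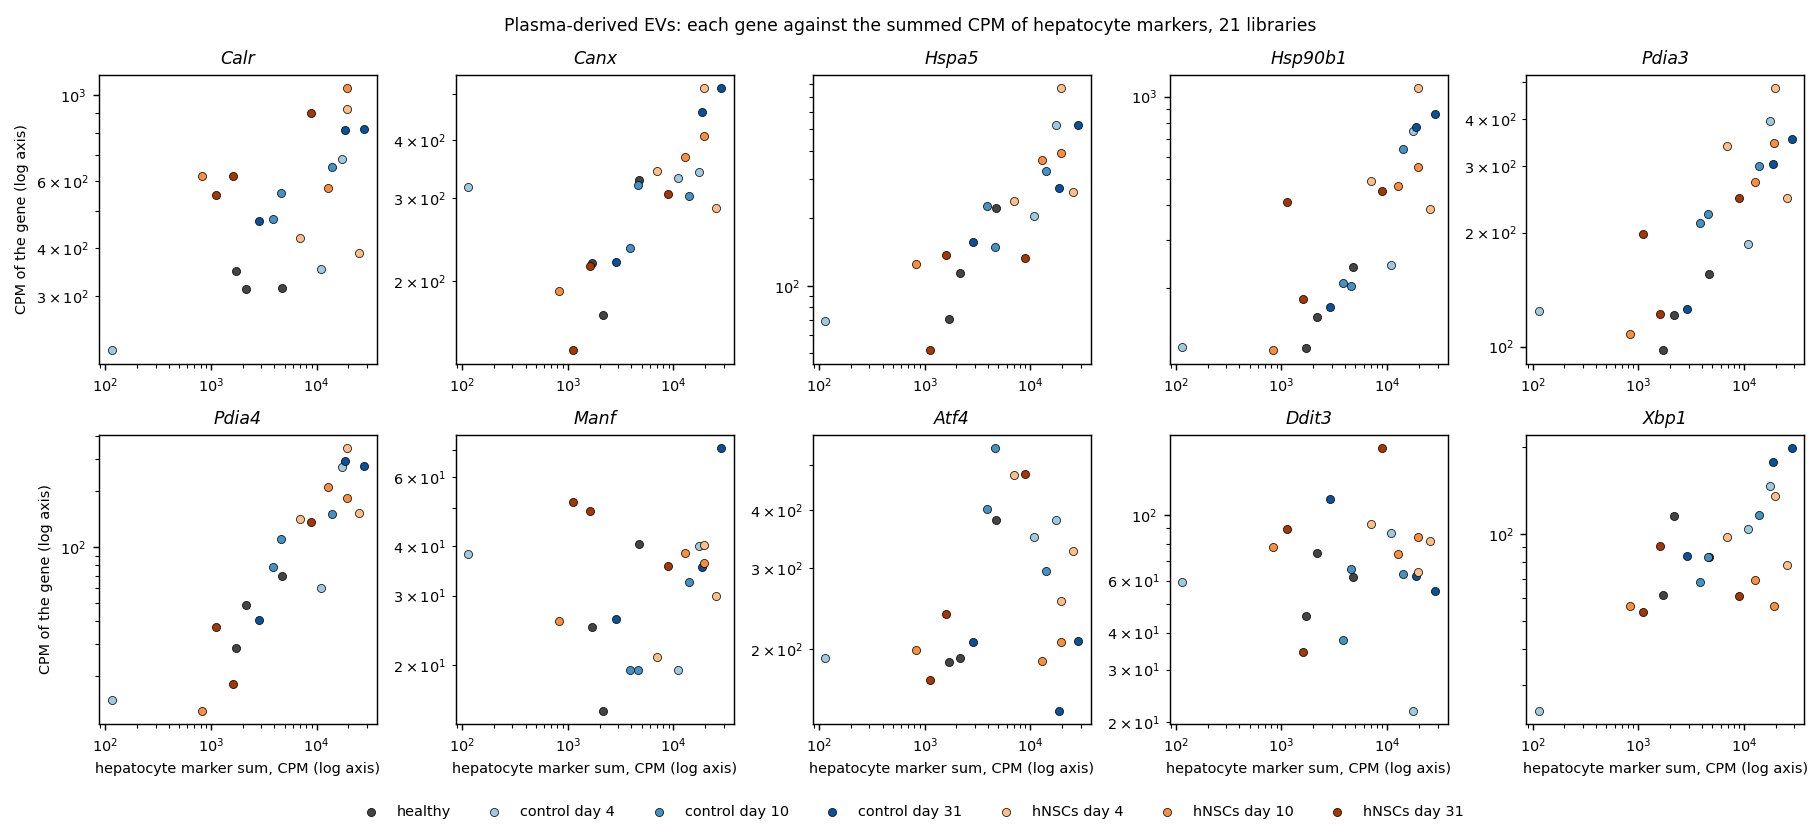
CPM of each of the 10 ER genes against the summed CPM of 5 hepatocyte markers in 21 plasma-derived EV libraries, both on log axes. Points are libraries colored by group; Pearson's r of log2 values was 0.90 for Pdia4, 0.83 for Hspa5 and 0.03 for Ddit3.

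Other cell type markers moved with fewer genes. In plasma, Atf4 correlated with the sum of 4 of 4 platelet markers (r 0.74, adjusted p = 0.0204, and rho 0.64, p = 0.00248, permutation tests; r 0.62 without the 2 farthest libraries and 0.83 centered within groups), 1 of 10 genes beside 2.04% of all genes positive and 2.14% in either direction. That sum was 616 to 19754 CPM (median 1671), with Pf4 the most abundant marker. Of 95 other ER genes, 1 was called with it, positive. Canx (r -0.70, adjusted p = 0.0320, rho -0.63) and Pdia3 (r -0.66, adjusted p = 0.0325, rho -0.62) correlated negatively with 4 of 5 B cell and plasma cell markers in permutation tests, 2 of 10 genes beside 0.415% of all genes negative (177 of 14716 in either direction). The p of rho was 0.00249 and 0.00358 in the permutation test, r without the 2 farthest libraries -0.67 for each, and r centered within groups -0.66 and -0.52. That sum was low, at 0 to 134 CPM (median 31.9), with Cd79a the most abundant. Of 95 other ER genes, 5 were called with it, each negative.

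In brain, Xbp1 correlated with the sum of 4 of 4 oligodendrocyte markers (r 0.66, adjusted p = 0.0313, and rho 0.65, p = 0.00179, permutation tests; r 0.60 without the 2 farthest libraries and 0.58 centered), 1 of 10 genes beside 2.23% of all genes positive and 10.9% in either direction. Pdia3 correlated with 7 of 7 microglia and macrophage markers (r 0.68, adjusted p = 0.0177, and rho 0.58, p = 0.00595, permutation tests; r 0.58 without the 2 farthest and 0.66 centered), 1 of 10 beside 4.67% positive and 9.55% in either direction. The oligodendrocyte sum was 1382 to 11173 CPM with Mbp the most abundant, and the microglia and macrophage sum 60.2 to 1567 CPM with C1qa. Of 94 other ER genes, 6 were called positive and 3 negative with the oligodendrocyte sum. With the microglia and macrophage sum 7 were called positive and 1 negative. The brain family held 116091 relations. The sums of neuron, astrocyte, endothelium and red cell markers in brain gave 0 of 10, beside 8.39%, 2.18%, 1.23% and 0.834% of all genes in either direction. Those of red cell, T cell, neutrophil and endothelium markers in plasma also gave 0 of 10, beside 1.73%, 1.72%, 0.408% and 0.347%. The part of these cell types in the values was not tested.

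In plasma 4 of the other 9 genes also moved with Hspa5. Log2 CPM of Hspa5 correlated with that of Pdia4 (r 0.83, rho 0.89), Pdia3 (r 0.81, rho 0.86), Canx (r 0.78, rho 0.79) and Hsp90b1 (r 0.76, rho 0.82), all called in the permutation test (adjusted p of r from 0.00441 to 0.0112, p of rho at most 7e-05). Without the 2 libraries farthest from the median Hspa5 value, r was 0.83, 0.86, 0.66 and 0.87. Calr was not called (r 0.55, adjusted p = 0.187, permutation test). The 4 of 9 stood beside 2.64% of all genes positive, 3.13% in either direction, and 8 of 95 other ER genes. Centered within groups r with Hspa5 was 0.79 for Pdia4, 0.79 for Pdia3, 0.69 for Canx and 0.79 for Hsp90b1. Over the 45 pairs of the 10 genes, the median r was 0.41 in plasma with 36 pairs positive, and 0.22 in brain with 31 positive.

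Genes outside the lists whose log2(CPM + 1) over 21 libraries was most like the mean of the 10 genes were Cpamd8 (r 0.90), Cyp2d2 (r 0.89), Pgrmc1 (r 0.88), C1s (r 0.88) and Hrg (r 0.87) in plasma, of 8776 compared. In brain they were Tmem14c (r 0.86), Rpl36al (r 0.85), Gadd45gip1 (r 0.83), Sod1 (r 0.83) and Npm1 (r 0.83), of 10082 compared. Cyp2d2 encodes a cytochrome P450 of liver, and Hrg a plasma glycoprotein made there.

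Between the EV sources, 7 of the 10 genes were called lower in brain. Atf4 had the largest difference, with 42 libraries normalized together and the rat as a block. Its mean CPM was 58.7 in brain and 339 in plasma, and no brain value reached the lowest plasma value (log2 difference -2.65, SE 0.26, adjusted p = 2.57e-09 in edgeR), 1 of 10 genes without overlap beside 12.2% of all genes. Calr (-1.86, SE 0.18, adjusted p = 3.31e-09) and Pdia3 (-1.74, SE 0.20, adjusted p = 4.05e-08) followed in the same edgeR test, with overlapping ranges. Ddit3 (-1.65), Pdia4 (-1.40), Hspa5 (-1.07) and Manf (-0.99) were also called, with adjusted p between 1.82e-04 and 0.0238 in edgeR.

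In all, edgeR called 7 of 10 genes between brain and plasma EVs, beside 58.1% of 13470 genes, and each of the 7 was lower in brain, beside 25.7% of all genes lower and 32.4% higher. Canx (-0.47, adjusted p = 0.0289 in edgeR) stayed under 1.5-fold, Hsp90b1 (-0.61, adjusted p = 0.0604 in edgeR) missed the threshold, and Xbp1 (-0.10) was nearly level. The median log2 difference was -1.23 for the 10 genes and 0.26 for all genes. These are relative abundances within each library, and the brain libraries had fewer counts on annotated genes.

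Other genes of ER folding, stress, degradation and translocation gave a wider context (98 of 102 listed in the tables, 92 tested between tissues). Of these, 10 were higher (32.4% of all genes were) and 29 lower (25.7%) in brain, with a median log2 difference of -0.52. Components of the translocon and of signal peptide processing, the entry route to the ER, were lower for 10 of 16 and higher for 0, with Sec61b at -5.09 (adjusted p = 8.26e-06 in edgeR). Genes of the N-glycan folding cycle, which tags glycoproteins for calnexin and calreticulin, were higher for 4 of 11 and lower for 0, a higher share close to that over all genes. Among the stress sensors 1 of 6 was higher, Atf6b at 3.25 (adjusted p = 1.08e-07 in edgeR).

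ER chaperones and cochaperones were lower for 4 of 13, beside 25.7% of all genes, among them Dnajc1 at -2.38 (adjusted p = 3.67e-07 in edgeR). Genes of the disulfide isomerase family and of ER oxidation were lower for 5 of 12. ER-associated degradation genes were higher for 4 and lower for 3 of 13, KDEL receptor and retrieval genes lower for 3 of 6, and PERK and ATF4 targets higher for 1 and lower for 4 of 15. The 1 higher was Slc7a11, the cystine transporter, with a mean CPM of 77.7 in brain and 1.64 in plasma. The most abundant gene by list reached a mean FPKM of 8.10 in brain (Prkcsh), above the 6.21 of Calr, and of 45.3 in plasma (Nupr1), below the 79.0 of Calr. Within tissues 0 of these other ER genes were called by edgeR in any of 20 comparisons, and at an unadjusted p under 0.05 edgeR counted 0 to 14 of 94 in brain and 1 to 10 of 95 in plasma. Over the comparisons of a tissue this was 6.91% of their tests in brain and 4.95% in plasma, beside 8.38% and 6.22% over all genes.

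To relate both EV sources in the same animals, FPKM in brain was set against FPKM in plasma over 21 rats. Manf had the highest Pearson's r of the 10 genes, 0.74 (p = 1.50e-04, adjusted p = 0.126, permutation test), with Spearman's rho 0.55 (p = 0.0119, permutation test). On log2(TMM CPM + 1) its r was -0.036 (p = 0.881, permutation test). On FPKM its r was 0.52 without the 2 rats farthest from the median brain value and 0.61 centered within groups. The rat with the most Manf in both, a control rat at day 31, had an FPKM of 4.57 in brain and 27.2 in plasma. For Calr r was 0.56 (p = 0.00855, adjusted p = 0.441, permutation test), rho 0.46 (p = 0.0376), and r was 0.44 without the 2 farthest rats and 0.23 centered within groups. Xbp1 had r 0.45 (p = 0.0375, adjusted p = 0.645, permutation test) and rho 0.34 (p = 0.136).

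Of the 10 genes 0 were called at an adjusted p under 0.05, beside 0% of the 3369 genes that reached a mean FPKM of 1 in brain and in plasma. The permutation test counted 3 of 10 at an unadjusted p under 0.05, beside 7.63% of all genes. The median r of the 10 genes was 0.33, beside 0.12. Over the 12 rats without hNSCs the median was 0.72, beside 0.07 over all genes, and 8 of 10 had an unadjusted p under 0.05, beside 11.5%. Over the 9 rats given hNSCs it was -0.17, beside 0.18, and 2 of 10 had an unadjusted p under 0.05 in the permutation test, beside 11.2%. On log2(TMM CPM + 1) the median over 21 rats was 0.13, beside 0.02, and over the 12 rats without hNSCs it was 0.28, beside 0.03, with 0 of 10 at an unadjusted p under 0.05 in the permutation test, beside 6.11%. Over the 9 rats given hNSCs it was -0.08 on that scale, beside 0.01, with 0 of 10, beside 5.08%. The last 2 settings were chosen after seeing the data. The difference between rats with and without hNSCs was not tested, and the part of the annotated share in brain FPKM was not tested.

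**Figure D4:**
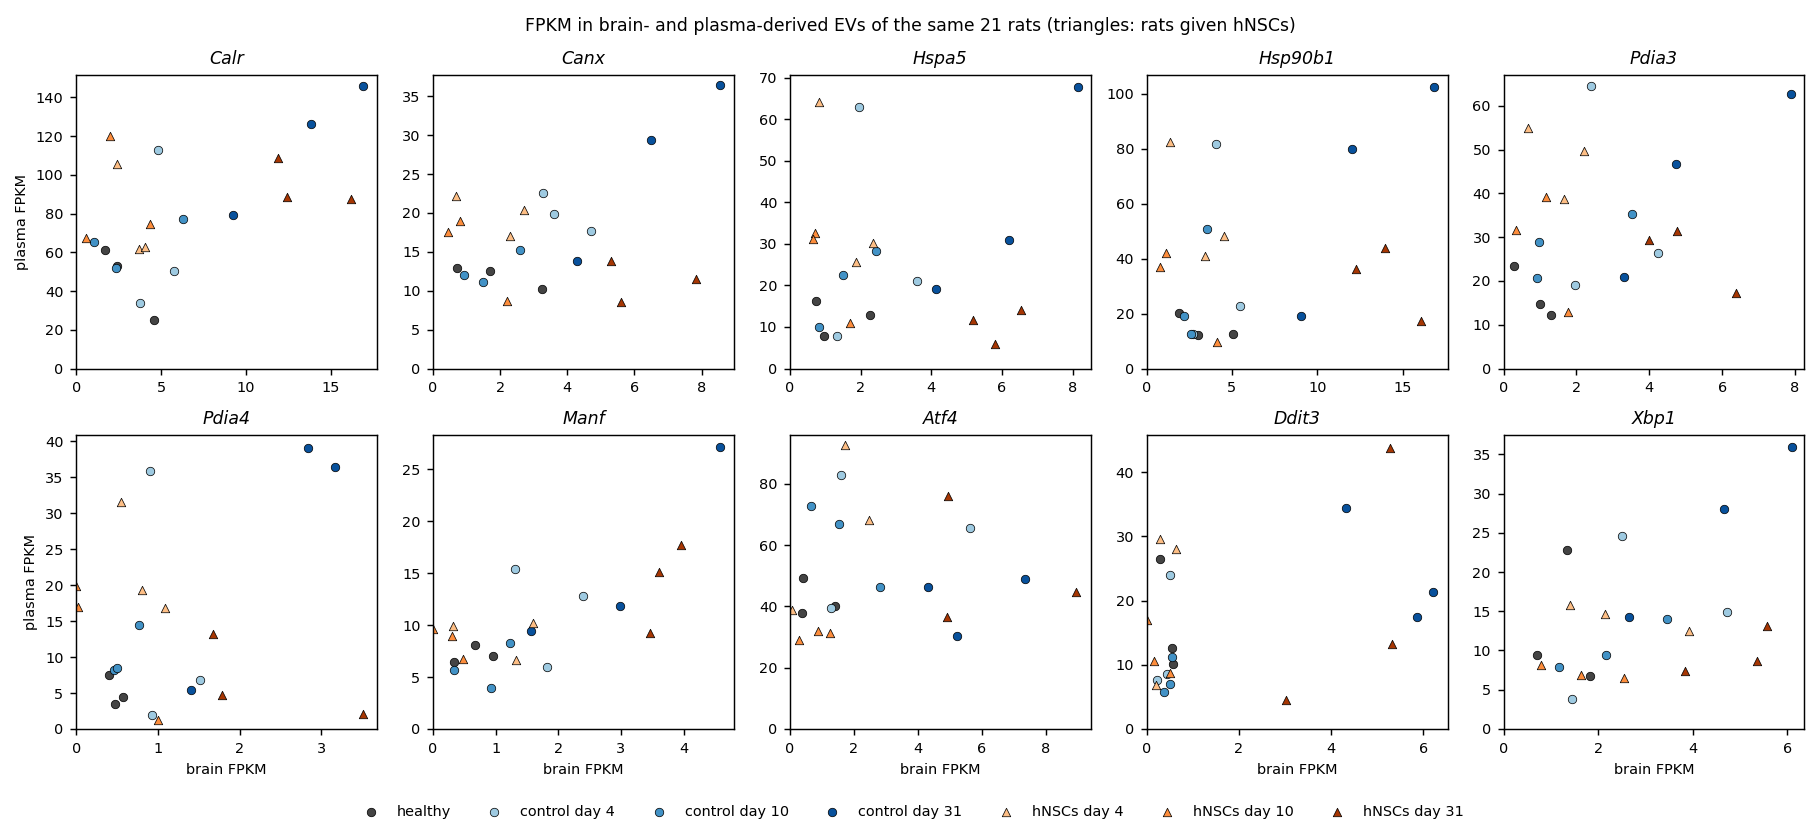
FPKM of the 10 ER genes in brain-derived EVs (x axis) and plasma-derived EVs (y axis) of the same 21 rats, with triangles for rats given hNSCs and circles for the others, colored by group. For Manf, with r 0.74, 1 control rat at day 31 lies at upper right (4.57 in brain and 27.2 in plasma), followed in brain by hNSCs rats at day 31 (the highest at 3.96 and 17.8).

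The promoters of the 10 genes, of which 4 moved with Hspa5 in plasma, were read from RefSeq (build GRCr8), 300 bases each with 250 before the gene start. Of the 10 genes 8 matched a promoter, and Manf and Pdia3 did not enter. The ER stress response element, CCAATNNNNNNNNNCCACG on either strand, is known to be bound by NF-Y and ATF6. It was present in 5 of 8 promoters (62.5%), in 4 of 90 promoters of other ER genes (4.44%) and in 22 of 33469 promoters in all (0.0657%). Because the genes were chosen by name as ER chaperones and stress regulators, these shares are a description and no test of the element. The matches are shown because they are shared by 5 of the genes, with CCAAT and CCACG in capitals, each read 5′ to 3′ on the strand that holds the match. They lie at chr3:38452973-38452991 (plus strand) for Hspa5, chr7:23012451-23012469 (minus) and chr7:23012347-23012365 (plus) for Hsp90b1, chr10:35158069-35158087 (minus) for Canx, chr14:84604558-84604576 (plus) for Xbp1, and chr19:40213135-40213153 (minus) for Calr.
Hspa5: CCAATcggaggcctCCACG
Hsp90b1 minus strand: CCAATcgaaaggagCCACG
Hsp90b1 plus strand: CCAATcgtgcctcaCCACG
Canx: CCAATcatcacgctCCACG
Xbp1: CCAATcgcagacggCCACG
Calr: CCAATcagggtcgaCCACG

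The match of Hspa5 ended 25 bases before the gene start and that of Xbp1 47 bases, while those of Canx and Calr lay 212 and 214 bases away. Pdia4, Atf4 and Ddit3 held no such match in these windows. Of the 4 genes called with Hspa5, Hsp90b1 and Canx held it, Pdia4 did not and Pdia3 did not enter. Among the 5 genes with the element, Hspa5, Hsp90b1 and Xbp1 were called with the hepatocyte sum in plasma, and Canx and Calr were not. The shorter parts overlap the element, with CCAAT alone in 7 of 8 promoters (45.6% of other ER genes and 37.5% of all) and CCACG alone in 8 of 8 (62.2% of other ER genes and 31.6% of all). The unfolded protein response element (TGACGTGG, 8.89% of other ER genes and 0.595% of all promoters) and the ATF4 and CHOP element (TGATGCAA, 3.33% and 0.795%) were found in 0 of 8, as was the ER stress response element II (ATTGGNCCACG, 3.33% and 0.0508%). A match describes these letters only.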

How the data were processed

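Long RNA libraries of EVs were used (42 of 84 samples in the series, 21 brain and 21 plasma); miRNA libraries were not used here. The deposited count table gives whole-number counts per gene and the deposited FPKM table gives FPKM summed by the authors over transcripts of a gene. The authors filtered reads with in-house scripts, aligned them with Bowtie2 to Rnor_6.0 and assembled and measured transcripts with StringTie. The counting tool, its strand setting and the versions of Bowtie2 and StringTie were not given in the sources used here, so overlapping antisense transcripts may share counts. The 7855 features without a gene name in these tables were left out of the tests.

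Counts of annotated genes were tested with edgeR 4.0.16 (R 4.3.3; filterByExpr, TMM, quasi-likelihood test, Benjamini-Hochberg adjustment over all genes tested), with 7 groups in 1 model per tissue. A gene was called at an adjusted p under 0.05 and over 1.5-fold. Brain and plasma were compared in 42 libraries with the rat as a block. DESeq2 1.42.0 and limma 3.58.1 on log2(FPKM + 1), with a pseudocount of 0.1 as another setting, were alternatives, as were no filter, other library sizes, hemoglobin left out, a replicate block, only the groups compared, and each library left out. Correlations used 100000 permutations, two-sided (Python 3.11.15, numpy 2.4.6, pandas 2.3.3, scipy 1.17.1), with FPKM between tissues and against the annotated share (log2(TMM CPM + 1) as the other scale), and log2(TMM CPM + 1) for marker sums and between genes. Figures were drawn with matplotlib 3.10.9. The tests were checked on simulated data. With 3 rats a group, p-values of the group comparisons rest on the spread between these rats, and all tests are two-sided. Permutations were not kept within groups, so p-values of r and rho take in differences between groups as well as the spread between rats.

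The 10 genes and all lists were chosen with earlier results of these data known. Named genes are the 10, and of the ER lists up to 3 called in each direction with the largest change and no overlap, and the most abundant of a list by mean FPKM. Of the listed names, 2 were matched by synonym. Genes of like pattern are the 5 outside the lists with a mean CPM of at least 10 and the highest r with the mean of the 10 genes.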

Additional observations from a re-analysis of the deposited data

How the results depend on the processing

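Within tissues, 0 of the 10 genes were called under DESeq2, without the filter, with hemoglobin genes left out, with only the groups compared, and with the hepatocyte covariate (chosen after seeing the data). limma on log2(FPKM + 1) and on log2(FPKM + 0.1) called 10 and 10 between day 31 control and healthy rats in brain (beside 57.0% and 80.9% of all genes), and 9 and 9 between days 31 and 10 (52.0% and 71.5%). The library size of all features without TMM called 1 between days 31 and 10 (Hsp90b1, log2 difference 1.93, adjusted p = 0.0488 in edgeR), beside 4.69% of all genes. Both settings keep the annotated share in the values. Leaving out each library gave 0 to 1 between hNSCs and control rats in brain at day 10, and 0 to 1 for the change of that effect from day 4. The 1 was Pdia4 without hNSCs day 10 replicate 1 (adjusted p = 5.11e-04 and 0.00216 in edgeR), beside 4.92% and 2.75%. Between brain and plasma, leaving out each rat gave 7 to 8 (beside 56.4% to 59.5% of all genes), DESeq2 8 (71.2%), limma 10 with either pseudocount (60.1% with 1 and 75.9% with 0.1) and the library size of all features 10 (58.9%).

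Signs turned in brain, in plasma with the hepatocyte covariate (0.30 for Hsp90b1, 0.14 for Pdia3 and 0.38 for Calr between hNSCs and control rats at day 31), and in the brain–plasma correlations. In brain, Hsp90b1 between day 4 and healthy was 0.26, 0.34 and 0.12 with limma (pseudocount 1, then 0.1) and with the library size of all features, and Xbp1 between days 31 and 10 was 0.75, 0.99 and 0.69. On log2(TMM CPM + 1), r was -0.036 for Manf, -0.066 for Canx, -0.13 for Hsp90b1 and -0.25 for Pdia4. Over the 9 rats given hNSCs it was -0.65 for Canx, -0.67 for Hspa5, -0.37 for Hsp90b1, -0.50 for Pdia3 and -0.65 for Pdia4. On log2(TMM CPM + 1) over those 9 rats (chosen after seeing the data) it was -0.078 for Manf, -0.44 for Canx, -0.23 for Hspa5, -0.39 for Hsp90b1, -0.0087 for Pdia3, -0.38 for Pdia4 and -0.080 for Xbp1. Without the 2 rats farthest from the median, Hspa5 was at -0.20. Atf4 was at -0.15 over the 12 rats without hNSCs and -0.42 over the 9 control rats after stroke. The cause of these turns was not tested.

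Of 200 log2 differences within tissues, the sign was kept in 191 with DESeq2, 159 with limma, 200 without the filter, 194 with hemoglobin left out and 154 with the library size of all features, and of 100 in plasma 82 with the hepatocyte covariate. Over fits without each library, 1256 of 1440 signs were kept, and 471 of 474 for differences over 1.5-fold. For the differences named in plasma, leaving out each library gave 0.98 to 1.32 for Calr and 1.46 to 2.25 for Hsp90b1 at day 31, and -1.89 to -1.01 for Hspa5 with hNSCs at day 31. The change of the latter effect from day 4 gave -3.19 to -1.61. Replicate numbers did not pair the rats: the deviations of same-numbered rats had a median r of -0.01 in brain and in plasma, with 9 and 6 of 63 pairs over 0.1. With that number as a block (replicate block) 0 were called within tissues and 193 of 200 signs were kept. Between brain and plasma without the rat as a block (no replicate block), 8 were called, beside 58.6% of all genes. Groups held 3 rats, and brain counts on annotated genes were as low as 569136.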

Other observations

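Ddit3 was the gene among the 10 whose FPKM and counts parted most. The FPKM that each of its counts gave, relative to its median over libraries and to the median of all genes in a library, was 2.30, 2.25 and 1.80 in control rats at day 31 and 1.01, 2.32 and 1.99 in hNSCs rats at day 31. In the other brain libraries with at least 20 counts it was 0.96 to 1.01. In plasma it ranged from 0.54 to 1.27. The ratio of highest to lowest was over 2 in 515 of 11908 genes in brain (4.32%) and in 544 of 11619 in plasma (4.68%), counting genes with at least 20 counts in at least 10 libraries. Which transcripts of Ddit3 gave these values was not tested.

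In plasma the hNSCs day 10 replicate 1 library stood apart from its group in the folding enzymes, with Pdia4 at 13.0 CPM beside 185 and 212, and Hsp90b1 at 118 beside 554 and 473. Control day 4 replicate 2 was also the lowest of its group, with Pdia4 at 15.0 CPM beside 59.8 and 272, and Hsp90b1 at 122 beside 242 and 745. Xbp1 was low in the second library (24.4 CPM beside 104 and 147) and not in the first (56.3 beside 56.2 and 69.1). The hepatocyte sums of these libraries, 832 and 115 CPM, were the lowest of their groups. Manf was also lowest of its group in the first (25.9 CPM beside 36.2 and 38.4) but not in the second (38.2 beside 19.5 and 40.2). The part of hepatocyte RNA in these values was not tested.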
